A study of Mus musculus with 8 samples.

Results

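Cytoplasmic polyA RNA of mouse liver was compared with that of MIN6 cells, which derive from a mouse insulinoma and serve as a stand-in for the pancreatic beta cell. The comparison took the 4 cytoplasmic libraries of the 8 in the study, 2 from liver and 2 from MIN6. Each library was rescaled so that its values summed to 1000000 (rescaled FPKM, called units here, per transcript length), and a gene entered if its mean over the 4 libraries was at least 1. That left 12866 of 26520 genes, with 137 genes at a mean of 1 to 1.1 and 138 at 0.9 to 1. A further 12145 genes were listed at 0 in all 4 libraries and 1509 were above 0 but under the minimum.

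The liver groups were whole liver of laboratory mice, and the strain field reads C57BL/8 and C57BL/9 for cytoplasmic replicates 1 and 2. In that field the number climbs by 1 from one liver sample to the next, starting at C57BL/6 in the nuclear samples, so it may not name the strain. The sources used here give no age, sex or feeding state of the mice. The MIN6 cells were grown in DMEM with fetal bovine serum, and no treatment is named for either group. Liver cytoplasm was the supernatant left when nuclei were collected over a sucrose gradient, while MIN6 cytoplasm was the supernatant of cells lysed with a mild NP-40 detergent. Tissue and fractionation method therefore changed together and cannot be told apart. The source field of the MIN6 samples names the other fraction than the title does, and the title was used. Neat1, a noncoding RNA that stays in the nucleus, had 50.5 and 42.3 units in the MIN6 libraries titled cytoplasmic and 634 and 803 units in those titled nuclear, the order that the titles give. Whether the 2 replicates came from separate mice or cultures is not stated, so p-values measure only the spread between these libraries, which may be technical.

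Hepatocytes make most proteins of blood plasma, dispose of nitrogen as urea, release glucose between meals and modify drugs and bile acids. Beta cells package insulin and other peptides in dense granules, sense glucose through its breakdown and release the granules by calcium-driven exocytosis. MIN6 cells keep much of this machinery but divide as a tumour line, whereas most adult hepatocytes are at rest. Cytoplasmic polyA RNA holds mainly processed messages, the pool from which both kinds of cell draw their protein synthesis.

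The libraries were alike in estimated depth, which was not checked against read counts. From the steps in low values, the number of reads was estimated in units of 1000000, at about 1.10 and 1.02 for the liver libraries and 1.22 and 1.19 for the MIN6 libraries. A floor of 3 reads on a 2 kb transcript stood at 3.02 and 3.17 rescaled units in liver and 2.94 and 2.97 in MIN6, and covers counting error only. Liver RNA was the more concentrated in few genes. In liver 77 and 87 genes held 50% of the summed value, against 289 and 281 genes in MIN6. In the same libraries 10423 and 10464 genes were above 0 in liver, against 11851 and 11739 in MIN6. Between replicates, genes at 10 to 100 units differed by a median of 0.491 on the log2 scale in liver and 0.422 in MIN6. Above 100 units the figure was 0.253 in liver and 0.218 in MIN6, and at 1 to 10 units it was 0.847 in liver and 0.812 in MIN6. At such low levels the spread of 2 libraries can lie well below counting error.

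How the libraries are scaled sets the split between genes higher and lower in liver. With sums made equal, the median log2 difference of all tested genes, liver minus MIN6, was -1.25. With libraries scaled by the median of ratios it was -0.18, a shift of 1.07. Differences below are on the log2(rescaled value + 1) scale with equal sums unless the other scaling is named, and they understate the change of low genes. A difference of about 1 in either direction in a broad group of genes has to be read against that shift.

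**Figure D1:**
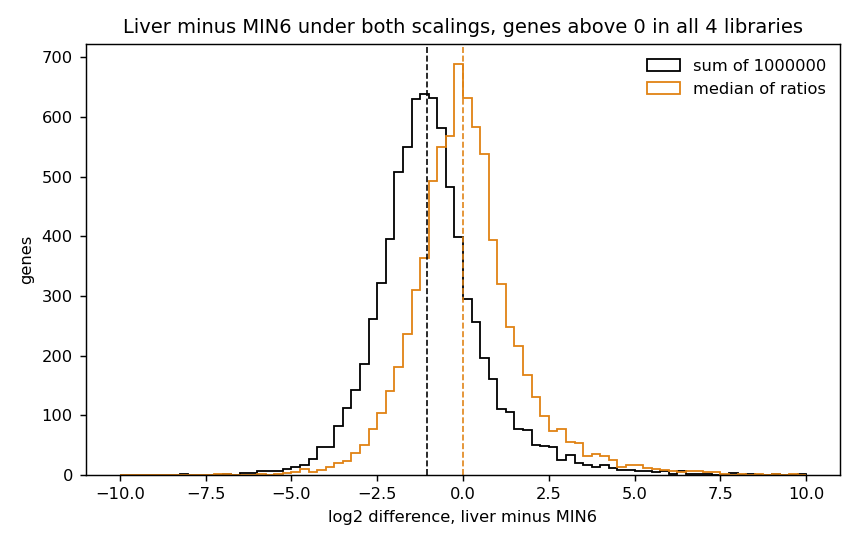
Histogram of the log2 difference, liver minus MIN6 (horizontal axis), against number of genes (vertical axis), for genes above 0 in all 4 libraries. The black outline uses equal sums and has its median (dashed) at -1.06, and the orange outline uses the median of ratios with its median at -0.01.

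Across the table, limma called 1533 genes higher in liver (11.9% of those tested) and 4581 lower (35.6%) at a Benjamini-Hochberg adjusted p under 0.05, and 6752 were not called. Of the calls, 25.1% were thus higher in liver. Under the median of ratios 2161 were higher (17.3%) and 2283 lower (18.2%), so that 48.6% of calls were higher in liver. All 1533 genes higher in liver and 2283 of the 4581 lower genes were called the same way by both scalings, which is 11.9% and 17.7% of the genes tested. No gene was called in opposite directions. The other lower calls were not made under the median of ratios. That scaling raised liver against MIN6, by 1.07 at the median of all tested genes. Higher calls kept under it are therefore no separate support for them. Of the 4581 lower calls, 3533 were also made with the sum taken without the 100 highest genes and 2342 with a common median. Leaving out a single library lowered the counts: 2558 genes were lower in liver without liver replicate 1, 2628 without liver replicate 2, 2641 without MIN6 replicate 1 and 2688 without MIN6 replicate 2. Higher calls numbered 941 without MIN6 replicate 1 and 927 without MIN6 replicate 2. In 916 of the genes called higher, both MIN6 libraries were listed at 0, and in 1469 of those called lower both liver libraries were listed at 0.

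Folds could be taken only where both tissues were well above 0. Among 6512 genes that were above 0 in all 4 libraries and whose mean exceeded the floor in each tissue, 115 called genes were at least 10-fold higher in liver and 252 at least 10-fold higher in MIN6. At least 100-fold differences were called for 11 genes higher in liver and 1 gene higher in MIN6. Protein-coding genes made up 12324 of the genes tested, with 1497 higher and 4413 lower in liver. Counts for gene lists below are over the members that passed the minimum mean. They stand beside 11.9% higher and 35.6% lower of all tested genes with equal sums. Under the median of ratios these shares are 17.3% and 18.2%. A member can pass through the tissue where it is high, so such counts describe a list and support nothing beyond it. Of 299 long noncoding RNA genes, 15 were higher and 97 lower in liver, against 11.9% and 35.6% of all tested genes.

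**Figure D2:**
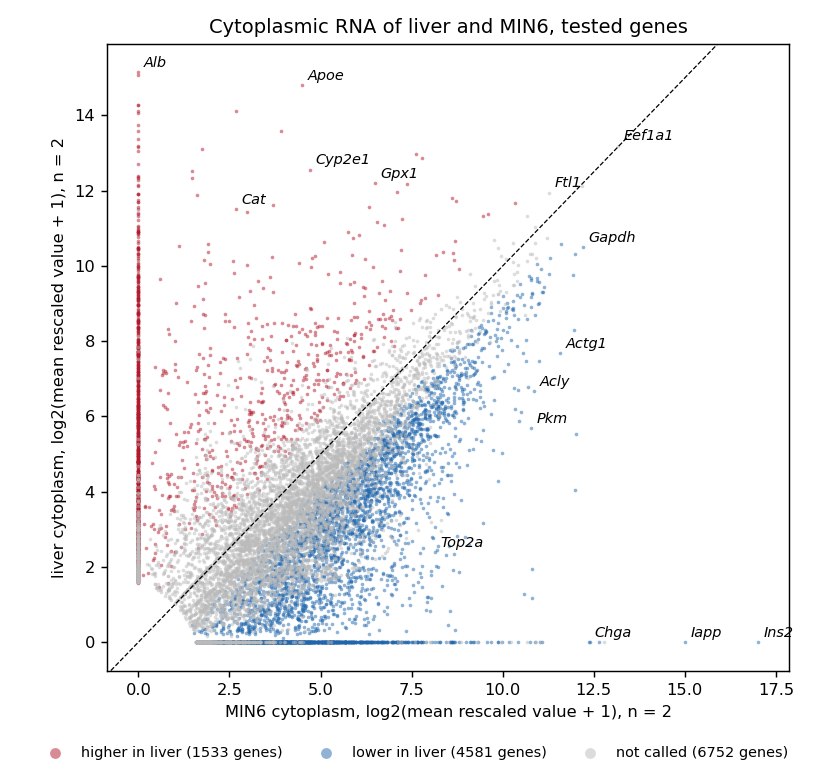
Log2(mean rescaled value + 1) of the 2 MIN6 cytoplasmic libraries (horizontal axis) against that of the 2 liver cytoplasmic libraries (vertical axis), 1 point for each of 12866 tested genes, with the line of equal values dashed. The 1533 genes higher in liver are red, the 4581 lower in liver blue and the 6752 not called grey. Genes listed at 0 in one tissue lie on an axis, Alb at the top left and Ins2 at the bottom right.

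Messages for secreted plasma proteins made up the largest share of any liver list. The 38 tested plasma protein genes, of 40 listed, held 23.4% and 22.8% of the summed value in the liver libraries, against 0.0766% and 0.0618% in the MIN6 libraries. All 38 were called higher in liver, and 30 of them were listed at 0 in both MIN6 libraries. Their median difference was 10.8, or 9.23 with genes listed at 0 placed at the floor, against -1.25 for all genes. In whole tissue, fewer cells of a type and less RNA per cell cannot be told apart, so these values are levels in the liver as a mixture.

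Alb, which encodes serum albumin, had 34100 and 38250 units in the liver libraries and was listed at 0 in both MIN6 libraries (adjusted p = 0.0016). Trf, which encodes the iron carrier transferrin, stood at 35830 and 33380 units in liver and at 0 in MIN6, but 63.5% of its exon bases are shared with the overlapping gene model Gm20425. Serpina1e, a mouse gene for the protease inhibitor alpha-1 antitrypsin, had 17150 and 18330 units in liver and was listed at 0 in MIN6. The haem carrier hemopexin (Hpx) reached 19610 and 14970 units in liver, and the haemoglobin carrier haptoglobin (Hp) 9828 and 7112, with MIN6 listed at 0 for both. The Saa, Mup and Serpina1 genes are families of near-identical copies that can share reads, so their levels are uncertain gene by gene. Within the major urinary proteins, Mup20 had 12200 and 12530 units and Mup3 had 10790 and 10640 units in liver, with MIN6 listed at 0.

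Not every plasma protein was liver-restricted in these samples. Ttr, the thyroid hormone and retinol carrier transthyretin that islets also make, had 1591 and 1654 units in liver and 454 and 377 units in MIN6, a difference of 1.97 (adjusted p = 0.0103). Gc, the vitamin D carrier, had 6846 and 8074 units in liver and 253 and 190 units in MIN6, a difference of 5.08 (adjusted p = 0.0033). Both genes were well above the floor in MIN6 and called higher in liver.

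The promoters of the following plasma protein genes are shown because all were higher in liver and each holds GTTAAT, a short sequence searched for in all promoters. They are RefSeq sequences of build GRCm38.p6, 120 bases ending just before the annotated start and written along the gene's strand, with the motif in capitals. Alb lies at chr5:90460750-90460869 on the plus strand, Serpina1e at chr12:103956898-103957017 and Serpina1a at chr12:103863620-103863739 on the minus strand, and Gc at chr5:89457899-89458018 on the minus strand.
Alb: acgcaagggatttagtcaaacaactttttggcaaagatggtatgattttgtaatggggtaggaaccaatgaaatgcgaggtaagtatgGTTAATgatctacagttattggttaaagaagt
Serpina1e: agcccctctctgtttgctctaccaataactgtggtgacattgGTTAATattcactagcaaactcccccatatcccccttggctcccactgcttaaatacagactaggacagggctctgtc
Serpina1a: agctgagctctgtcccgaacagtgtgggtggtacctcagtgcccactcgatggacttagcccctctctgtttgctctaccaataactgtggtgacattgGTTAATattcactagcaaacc
Gc: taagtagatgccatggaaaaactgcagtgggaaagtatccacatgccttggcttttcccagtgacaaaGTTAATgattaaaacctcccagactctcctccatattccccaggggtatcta
The motif ends 27 bases before the annotated start in Alb, 73 in Serpina1e, 16 in Serpina1a and 47 in Gc. In Serpina1e and Serpina1a the letters around it are the same over a long stretch, which stands at a different distance from the annotated start. Within 250 bases before the start and on either strand, GTTAAT occurred in 25 of 73 promoters (34.2%) of plasma protein, coagulation, complement and apolipoprotein genes, against 390 of 9574 promoters (4.07%) of all tested genes with an entry. Among promoters of genes called higher in liver the share was 7.87%, and among those lower under both scalings it was 3.99%. The homeodomain core TAATTA, which can share letters with GTTAAT, was found in 12.3% of the secreted protein promoters and 2.36% of all promoters. The TATA box letters TATAAA were found in 12.3% of the secreted protein promoters and 6.53% of all promoters. A match describes the letters of the promoter and does not show that a factor binds there.

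Coagulation, complement and lipid transport went with the plasma proteins. All 21 tested coagulation and fibrinolysis genes were higher in liver, 20 of them listed at 0 in both MIN6 libraries. Fgb, the fibrinogen beta chain, had 5433 and 3577 units in liver, and Plg, the precursor of the clot-dissolving enzyme plasmin, had 1591 and 1540, with MIN6 at 0. Of 19 complement genes 18 were higher in liver and none lower. C3, the central complement component, had 9943 and 7685 units in liver and 4.75 and 0 in MIN6 (adjusted p = 0.0074). Cfb, complement factor B, had 1332 and 968 units in liver and was listed at 0 in MIN6, with 79.5% of its exon bases shared with the gene model Gm20547.

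All 16 tested genes of lipoproteins and their assembly were higher in liver, holding 5.68% and 6.91% of the summed value in liver and 0.00668% and 0.00269% in MIN6. Apoe, the ligand by which remnant particles are cleared, had 24880 and 32510 units in liver and 34.7 and 8.55 units in MIN6. The means differed 1328-fold, and the log2 difference was 10.59 ± 0.79 (SE, n = 2 each, adjusted p = 0.0058). Apoa1, the main protein of high-density lipoprotein, had 8125 and 10060 units in liver and was listed at 0 in MIN6. Apoa2, its partner in the same particle, had 11180 and 13560 units in liver and 21.1 and 7.02 units in MIN6.

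**Figure D3:**
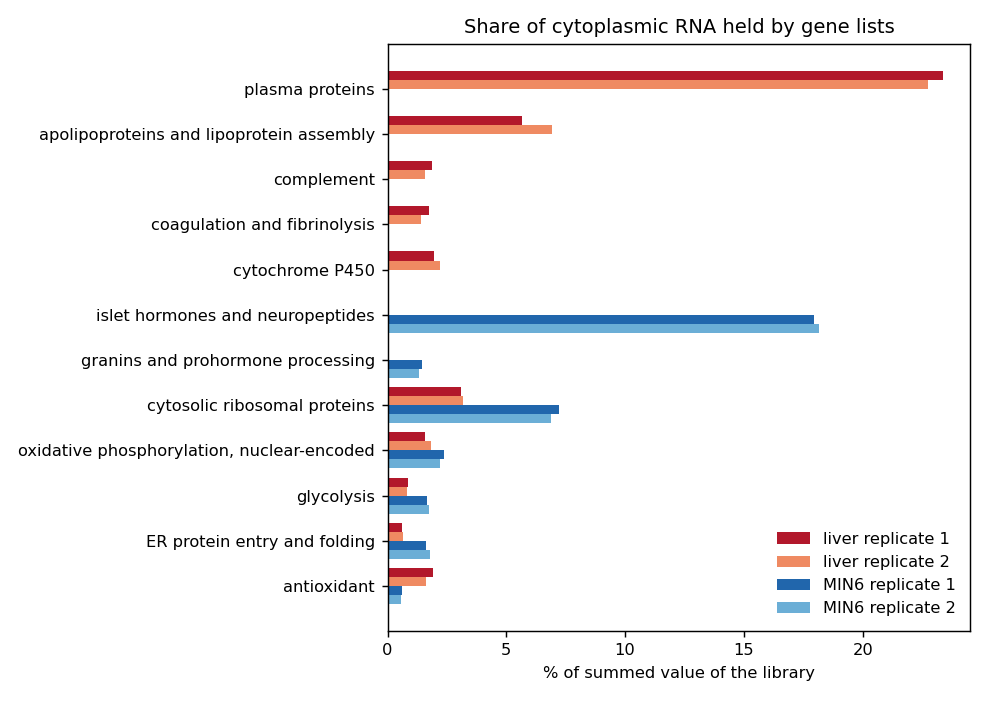
Share of the summed rescaled value (horizontal axis, percent) held by each of 12 gene lists, with 1 bar per library, liver in red tones and MIN6 in blue tones. Plasma proteins hold 23.4% and 22.8% in liver, while islet hormones and neuropeptides hold 18.0% and 18.2% in MIN6. Cytosolic ribosomal proteins hold 3.10% and 3.17% in liver and 7.23% and 6.87% in MIN6.

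The enzymes that break down drugs and steroids were largely a liver set. Of 31 cytochrome P450 genes tested 29 were higher in liver and none was lower, and of 26 conjugating (phase II) enzymes 25 were higher and none lower. Cyp2e1, which oxidises ethanol and other small molecules, had 5952 and 6135 units in liver and 15.0 and 35.0 units in MIN6, a 242-fold difference of means with a log2 difference of 7.98 ± 0.50 (SE, n = 2 each, adjusted p = 0.0045). Cyp3a11, an inducible drug-metabolising enzyme, had 2053 and 2738 units in liver and Cyp2f2 had 1747 and 2325, both at 0 in MIN6. Among conjugating enzymes, Gstm1, a glutathione transferase, had 3223 and 6076 units in liver and 211 and 121 units in MIN6, a 28.0-fold difference (adjusted p = 0.0108). Gsta3, another glutathione transferase, had 2934 and 3912 units in liver and was listed at 0 in MIN6. Members of the P450 and Ugt families resemble one another and may share reads.

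Nitrogen and amino acid metabolism showed the same direction. Of 13 genes of the urea cycle and ammonia handling 12 were higher in liver and none lower, and of 26 amino acid breakdown genes 25 were higher and none lower. Cps1, which commits ammonia to urea, had 986 and 1039 units in liver, and Arg1, which splits arginine to urea, had 1377 and 1012, with MIN6 at 0. The urea cycle was not wholly missing from MIN6: Asl, argininosuccinate lyase, had 1674 and 1738 units in liver and 58.4 and 59.0 units in MIN6, a 29.1-fold difference (adjusted p = 0.0021). Hpd, of tyrosine breakdown, had 5130 and 5150 units in liver and was listed at 0 in MIN6.

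Glucose output and fat burning were higher in liver as well. Of 12 genes of gluconeogenesis and glycogen 9 were higher and none lower, and of 28 genes of fatty acid oxidation and ketone synthesis 25 were higher and none lower. Pck1, the gatekeeper of gluconeogenesis, had 1713 and 1991 units in liver and was listed at 0 in MIN6. Fabp1, the liver fatty acid binding protein, had 5429 and 5121 units in liver and was also listed at 0 in MIN6. Of 17 genes of bile acid synthesis and transport 16 were higher and none lower, with Slc27a5, the bile acid ligase, at 1877 and 1957 units and Slc10a1, the bile acid uptake carrier, at 279 and 376 units in liver, both at 0 in MIN6.

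Genes of fat synthesis were called in both directions under both scalings. Of 20 genes of fatty acid and triglyceride synthesis 7 were higher in liver, 6 lower and 7 not called, with a median of -0.02. Across all tested genes 11.9% were higher and 35.6% lower, with a median of -1.25. Under the median of ratios 9 of the 20 were higher and 4 lower, with a median of 1.09. The figures for all genes were then 17.3% higher and 18.2% lower, with a median of -0.18. Acly, which makes cytosolic acetyl-CoA, had 94.0 and 107 units in liver and 1780 and 1940 units in MIN6, an 18.5-fold difference (log2 difference -4.20 ± 0.20 SE, n = 2 each, adjusted p = 0.0029). Srebf1, a regulator of lipid synthesis, had 44.3 and 43.1 units in liver and 306 and 296 units in MIN6 (adjusted p = 0.0047). The other way round, Agpat2, of phosphatidic acid synthesis, had 268 and 286 units in liver and 7.09 and 7.08 units in MIN6, a 39.1-fold difference (adjusted p = 0.0021). Stearoyl-CoA desaturases split between the tissues. Scd1 had 413 and 388 units in liver and 73.8 and 51.2 units in MIN6, while Scd2 had 0 and 0.515 units in liver and 421 and 404 units in MIN6, and both were called.

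For cholesterol synthesis the calls depended on the scaling. With equal sums 3 of 22 genes were higher in liver and 5 lower, with a median of -0.60. All tested genes had 11.9% higher and 35.6% lower, with a median of -1.25. Under the median of ratios 6 of the 22 were higher and none lower, with a median of 0.53. The values for all genes were then 17.3%, 18.2% and -0.18. The list median was thus above that of all genes under both scalings. Tm7sf2, a sterol reductase of the pathway, had 127 and 121 units in liver and 29.1 and 27.4 units in MIN6, 4.39-fold higher in liver (adjusted p = 0.0073) and called higher in liver by both scalings.

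Of 20 liver transcription factors tested 11 were higher in liver, 1 was lower and 8 were not called, with a median of 2.66, and 6 were listed at 0 in both MIN6 libraries. Under the median of ratios 16 were higher in liver and 1 was lower. Cebpa, a factor of hepatocytes and fat cells, had 156 and 159 units in liver and 0 and 0.729 units in MIN6 (adjusted p = 0.0034). Hnf4a, a nuclear receptor that acts in both hepatocytes and islets, had 289 and 232 units in liver and 14.5 and 17.0 units in MIN6, a 16.6-fold difference (adjusted p = 0.0040). Foxa2, a factor of the developing gut used by both organs, had 8.33 and 7.56 units in liver and 58.0 and 64.8 units in MIN6, and was the member lower in liver (adjusted p = 0.0051).

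Hormone messages took the corresponding place in MIN6. The 12 tested islet hormones and neuropeptides, of 18 listed, held 0.00477% and 0.00975% of the summed value in the liver libraries, against 18.0% and 18.2% in the MIN6 libraries. In liver 11 of the 12 were called lower. Apart from Spp1, a secreted phosphoprotein that is also on this list and supplies the whole liver share, every tested member was listed at 0 in both liver libraries. Their median difference was -8.17, or -6.58 with genes listed at 0 placed at the floor. Ins2, the more abundant insulin gene, was listed at 0 in both liver libraries and had 135100 and 128800 units in MIN6. Ins1, its close relative, was at 0 in liver and at 3084 and 1044 units in MIN6 (adjusted p = 0.0042) and differed more between the MIN6 replicates than Ins2 did. The 2 insulin genes are similar and may share reads. Iapp, the amyloid peptide stored with insulin, was at 0 in liver and at 29750 and 35680 units in MIN6. Peptides that mark other cells were also present in MIN6 and listed at 0 in liver. The neuropeptide Npy had 5632 and 7164 units in MIN6, Cck (cholecystokinin) 4122 and 6587, the alpha-cell hormone glucagon (Gcg) 383 and 432, and the delta-cell hormone Sst 126 and 324.

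The promoters of Iapp and Cck are shown because both peptides were listed at 0 in liver and their promoters hold CATCTG, an E-box sequence of the kind that NeuroD1 can bind. They are RefSeq sequences of GRCm38.p6, 120 bases before the start, with the motif in capitals. Iapp lies at chr6:142298305-142298424 on the plus strand and Cck at chr9:121495695-121495814 on the minus strand, where the motif is on the opposite strand and reads CAGATG.
Iapp: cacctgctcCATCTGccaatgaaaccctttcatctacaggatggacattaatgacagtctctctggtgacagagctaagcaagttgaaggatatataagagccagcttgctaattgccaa
Cck: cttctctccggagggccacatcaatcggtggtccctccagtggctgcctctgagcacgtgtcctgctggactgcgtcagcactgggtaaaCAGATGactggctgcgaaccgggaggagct
Within 250 bases before the start and on either strand, CATCTG occurred in 6 of 23 promoters (26.1%) of islet hormone and granin genes, against 10.1% of all tested genes with an entry and 16.4% of the liver secreted protein promoters. Among promoters of genes called higher in liver the share was 13.5%, and among those lower under both scalings it was 11%. GTTAAT occurred in 2 of the 23 (8.7%). The sets are small and the shares are descriptions.

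The granule around the hormones was a MIN6 set throughout. All 15 granins and prohormone processing genes were lower in liver, 13 of them at 0 in both liver libraries. Chga and Chgb, the chromogranins that condense granule cargo, were at 0 in liver and had 5606 and 5065 units and 774 and 873 units in MIN6. Cpe, which trims basic residues from prohormones, was at 0 in liver and at 1931 and 1843 units in MIN6. The convertase Pcsk1 was likewise at 0 in liver and at 167 and 267 units in MIN6, and Pcsk2 was at 267 and 208 units in MIN6.

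Of 27 genes of regulated exocytosis 24 were lower in liver and none higher, with a median difference of -4.45, and 23 kept the call under the median of ratios. Snap25, a membrane protein of the fusion complex, was at 0 in liver and at 406 and 288 units in MIN6. Syp, the vesicle protein synaptophysin, had 0 and 1.55 units in liver and 389 and 362 units in MIN6 (adjusted p = 0.0055). Of 23 genes of the neuronal cytoskeleton and adhesion 18 were lower in liver and none higher, among them Stmn3, a microtubule regulator, at 0 in liver and 323 and 448 units in MIN6.

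Glucose sensing differed by component. Of 20 genes tested 15 were lower in liver and 3 higher. Abcc8, the sulfonylurea receptor of the potassium channel that triggers insulin release, was at 0 in liver and at 637 and 530 units in MIN6. The channel pore gene Kcnj11 was at 0 in liver and at 71.5 and 86.0 units in MIN6. Against this, Slc2a2, the low-affinity glucose transporter of liver and of rodent beta cells, had 43.6 and 53.8 units in liver and was listed at 0 in both MIN6 libraries (adjusted p = 0.0022). The nuclear libraries held 16.9 and 44.4 units of Slc2a2 in liver and 1.54 and 0 units in MIN6. Slc2a1, the widespread glucose transporter, had 19.8 and 6.42 units in liver and 29.9 and 71.4 units in MIN6 and was not called (adjusted p = 0.137). Gcgr, the glucagon receptor, had 234 and 160 units in liver and was listed at 0 in MIN6.

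Beta-cell transcription factors were mostly restricted to MIN6. Of 17 tested 14 were lower in liver, 1 was higher and 2 were not called. Pdx1, which maintains beta-cell identity, was at 0 in liver and at 108 and 163 units in MIN6. Neurod1, an activator of the insulin genes, was at 0 in liver and at 149 and 143 units in MIN6. Pax6 had 0 and 5.23 units in liver and 426 and 458 units in MIN6 (adjusted p = 0.0178). Mafa, the factor of mature beta cells, was at 0 in liver and at 28.4 and 50.6 units in MIN6.

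Genes of cell division were lower in liver. Of 38 proliferation genes tested 31 were lower and none higher, and 24 were lower and 1 higher under the median of ratios. Top2a, the topoisomerase that untangles chromosomes in mitosis, had 4.15 and 4.30 units in liver and 296 and 271 units in MIN6, a 67.1-fold difference (log2 difference -5.77 ± 0.18 SE, n = 2 each, adjusted p = 0.0019). Stmn1, a microtubule regulator of dividing cells, had 45.8 and 92.0 units in liver and 1479 and 1422 units in MIN6, a 21.1-fold difference. Mki67, the marker of cycling cells, had 0 and 13.5 units in liver and 356 and 273 units in MIN6 and did not pass the test (adjusted p = 0.0509).

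Spc25, a kinetochore gene at chr2:69193895-69206194 (GRCm38), was the 1 gene called at least 100-fold higher in MIN6 among genes above 0 in all 4 libraries and with both group means above the floor, with 8.16 and 23.0 units in liver and 3804 and 4290 units in MIN6. It lies beside G6pc2, at chr2:69211073-69227841. G6pc2, the islet glucose-6-phosphatase, was at 0 in liver and at 2074 and 2233 units in MIN6. The level of Spc25 in MIN6 was thus above that of Top2a on the same per-length scale.

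Growth factor messages differed in both directions. Of 17 genes of the growth hormone and insulin axis 12 were higher in liver and 2 lower, against 11.9% and 35.6% of all tested genes. Igf1, the growth factor that liver releases into blood, had 418 and 443 units in liver and was listed at 0 in MIN6. Igf2, its imprinted fetal counterpart, had 0 and 2.89 units in liver and 1495 and 1597 units in MIN6 (adjusted p = 0.0069), with 64.5% of its exon bases shared with the overlapping models Gm49394 and Igf2os. Of 8 imprinted and fetal genes tested 4 were lower in liver and none higher, beside 35.6% and 11.9% of all tested genes. Among the lower genes, Peg3 had 0.238 and 0.493 units in liver and 396 and 330 units in MIN6.

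**Figure D4:**
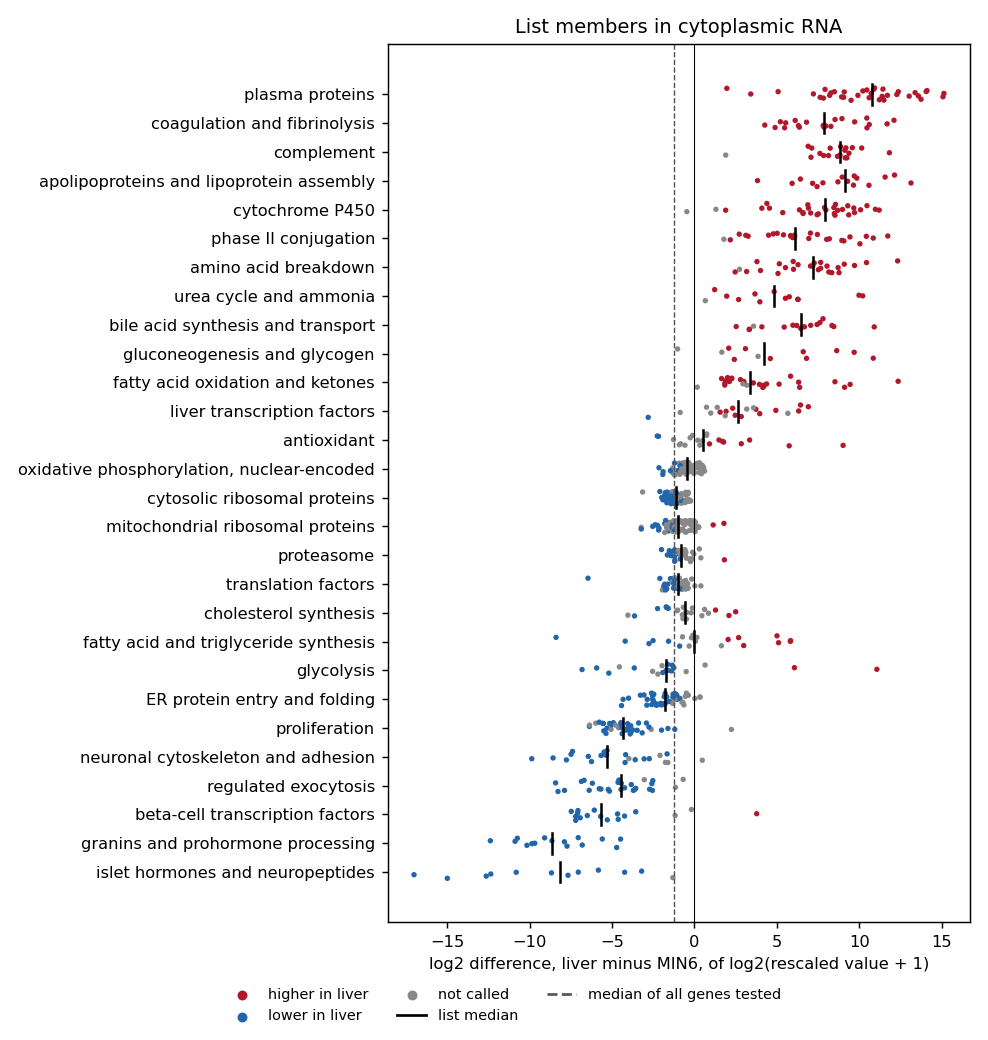
Log2 difference, liver minus MIN6 (horizontal axis), of each tested member of 28 gene lists (rows), with red for members called higher in liver, blue for lower and grey for not called. Black ticks mark list medians and the dashed line the median of all genes tested, -1.25. Plasma proteins have their median at 10.8 and islet hormones and neuropeptides at -8.17.

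Several enzymes and carriers exist as a form typical of liver and another form of wider use, and 15 such pairs were compared. Of the liver forms 10 were higher in liver and 2 lower, and of the other forms 10 were lower in liver and none higher. Of all tested genes 11.9% were higher and 35.6% lower. Aldoa, the aldolase of wider use, had 309 and 324 units in liver and 3834 and 4117 units in MIN6. Aldoa was 12.6-fold higher in MIN6 (log2 difference -3.65 ± 0.18 SE, n = 2 each, adjusted p = 0.0032). For pyruvate kinase, Pklr had 39.4 and 111 units in liver and was at 0 in MIN6, while Pkm had 32.8 and 68.1 units in liver and 1873 and 1665 units in MIN6, 35.1-fold higher in MIN6 (adjusted p = 0.0074). In liver the 2 pyruvate kinase genes overlapped in level, so the exchange was not complete there.

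The catalytic subunits of glucose-6-phosphatase were each listed at 0 in the other tissue. G6pc had 431 and 364 units in liver and was at 0 in MIN6, while G6pc2 was at 0 in liver and reached 2074 and 2233 units in MIN6. For acetyl-CoA carboxylase, Acacb, the form that regulates fat oxidation, had 53.7 and 58.6 units in liver and was at 0 in MIN6. Its partner Acaca, the form of fat synthesis, had 15.4 and 16.0 units in liver and 89.7 and 98.9 units in MIN6 (adjusted p = 0.0057). The transferrin receptors divided likewise. Tfr2, the iron sensor of hepatocytes, had 288 and 354 units in liver and was at 0 in MIN6, while Tfrc, the uptake receptor of growing cells, had 4.37 and 3.02 units in liver and 117 and 75.3 units in MIN6 (adjusted p = 0.0064).

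Other pairs did not exchange. Mat1a, the liver methionine adenosyltransferase, had 985 and 615 units in liver and 1.04 and 0 units in MIN6, but Mat2a, at 45.7 and 27.1 units in liver and 96.9 and 84.0 units in MIN6, did not pass the test (adjusted p = 0.0587). Rab3d, entered as the form outside neurons, had 10.7 and 4.46 units in liver and 96.3 and 111 units in MIN6 and was lower in liver together with its neuronal relative Rab3a. Of 19 glycolysis genes 2 were higher in liver and 11 lower with equal sums, against 11.9% and 35.6% of all tested genes. Under the median of ratios 3 were higher and 3 lower, near the 17.3% and 18.2% of all genes. Gapdh, of the middle of the pathway, had 1270 and 1634 units in liver and 4492 and 4943 units in MIN6, a call with equal sums (adjusted p = 0.0164) that was not made under the median of ratios (adjusted p = 0.213).

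**Figure D5:**
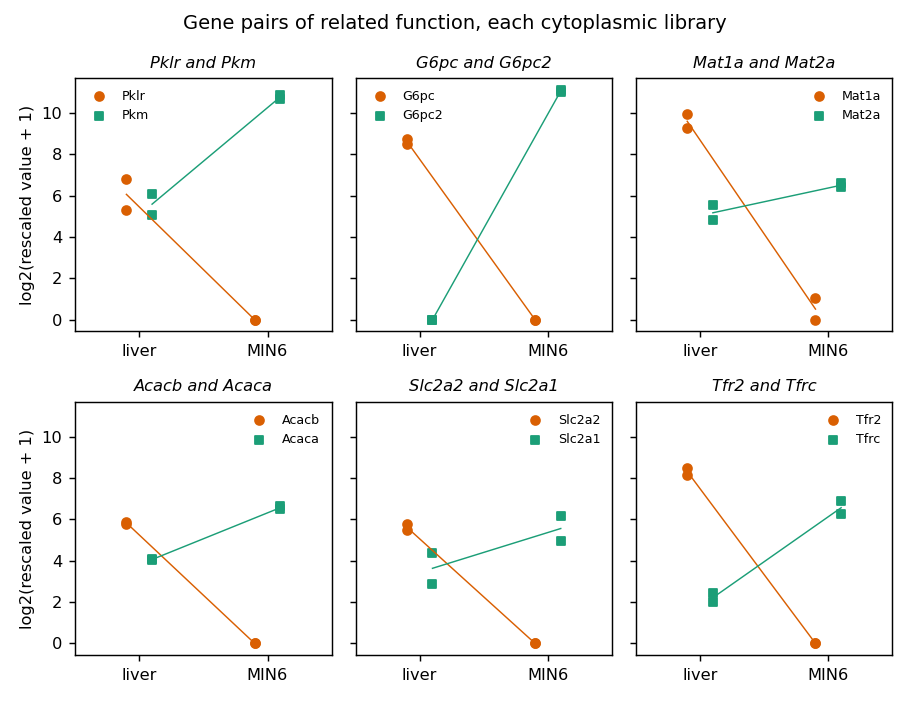
Log2(rescaled value + 1) of 6 gene pairs (vertical axis) in the liver and MIN6 cytoplasmic libraries (horizontal axis), with 1 point per library, lines joining group means (n = 2), circles for the form typical of liver and squares for the other form. Pklr, G6pc, Acacb, Slc2a2 and Tfr2 are listed at 0 in both MIN6 libraries, and G6pc2 in both liver libraries.

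For the shared machinery of the cell, the direction followed the scaling. Of 72 cytosolic ribosomal protein genes 44 were lower in liver and none higher with equal sums, and none was called either way under the median of ratios, where their median was 0.01. They held 3.10% and 3.17% of the summed value in liver and 7.23% and 6.87% in MIN6. Of 70 nuclear-encoded genes of oxidative phosphorylation 11 were lower in liver and none higher with equal sums, against 17 higher and none lower under the median of ratios. Translation factors (17 of 39 lower in liver with equal sums, 2 higher and 1 lower under the median of ratios) and the proteasome (12 of 34 lower and 1 higher, against 2 higher and none lower) had fewer lower calls under the median of ratios as well. The share of all tested genes called lower was 35.6% with equal sums and 18.2% under the median of ratios, and the proteasome's share with equal sums was near that of all genes. The translation factor Eef1a1, the most abundant gene of near-equal level, had 9678 and 9121 units in liver and 9042 and 9430 units in MIN6, a difference of 0.03 (adjusted p = 0.916). Under the median of ratios the same gene was 1.18 higher in liver (adjusted p = 0.032).

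Genes of protein entry into the endoplasmic reticulum and folding, listed together with stress regulators, had more lower than higher calls under both scalings. Of 50 genes 37 were lower in liver and none higher with equal sums, where 35.6% of all tested genes were lower. Under the median of ratios 15 were lower and 2 higher, against 18.2% and 17.3% of all genes. P4hb, the member with the highest mean, was called lower with equal sums (difference -1.09). It was not called under the median of ratios (0.06, adjusted p = 0.874). Ero1lb, an oxidase that forms disulfide bonds and is abundant in beta cells, had 17.5 and 18.1 units in liver and 242 and 369 units in MIN6, a 17.2-fold difference (adjusted p = 0.0058). The stress regulators Ddit3 and Trib3 were lower in liver too. Ddit3 had 5.04 and 5.22 units in liver and 103 and 165 units in MIN6 (adjusted p = 0.0056), and Trib3 had 1.71 and 1.77 units in liver and 48.5 and 60.1 units in MIN6 (adjusted p = 0.0031). Both liver values of Trib3 are under the floor.

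Single housekeeping genes differed greatly, some each way. Of 18 in the panel 2 were higher in liver and 9 lower with equal sums, against 11.9% and 35.6% of all tested genes. Under the median of ratios 4 were higher and 4 lower, against 17.3% and 18.2% of all genes. Actg1, a cytoplasmic actin, had 170 and 238 units in liver and 3022 and 3096 units in MIN6, a 15.0-fold difference called by both scalings (adjusted p = 0.0049 with equal sums). B2m, the light chain of class I histocompatibility antigens, had 2285 and 3773 units in liver and 76.2 and 82.7 units in MIN6, a 38.1-fold difference called by both scalings (adjusted p = 0.0048 with equal sums).

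The largest antioxidant differences were in enzymes that remove peroxides. Of 21 antioxidant genes 8 were higher and 2 lower, against 11.9% and 35.6% of all tested genes. Under the median of ratios 11 were higher and 1 lower, against 17.3% and 18.2% of all genes. Cat, the peroxisomal catalase, had 2705 and 3112 units in liver and 2.31 and 8.43 units in MIN6, a 542-fold difference of means (log2 difference 9.02 ± 0.63 SE, n = 2 each, adjusted p = 0.0053). Gpx1, the cytosolic glutathione peroxidase, had 4645 and 4722 units in liver and 64.7 and 114 units in MIN6, a 52.3-fold difference (log2 difference 5.75 ± 0.37 SE, n = 2 each, adjusted p = 0.0046). In the iron group 8 of 14 genes were higher in liver and 1 lower with equal sums. Among clock genes 1 of 16 was higher, 1 lower and 14 were not called, fewer calls than the shares of all tested genes.

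Defining markers were compared with the labels, and their direction went with the tissue named. All 14 hepatocyte markers were higher in liver and all 14 beta-cell markers lower. Of all tested genes 11.9% were higher and 35.6% lower. Of the hepatocyte markers 8 were listed at 0 in both MIN6 libraries. Such members passed the minimum mean through the tissue where they are high, and several markers are named above. The counts therefore add no separate support. The beta-cell markers were listed at 0 in both liver libraries and held 17.8% and 17.6% of the summed value in MIN6. Hepatocyte markers held 10.7% and 11.6% in liver and 0.0502% and 0.0436% in MIN6, where Ttr with 454 and 377 units made up most of the sum.

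Markers of the other cells of the liver were present in the liver libraries. Of 18 tested markers of Kupffer cells and other leukocytes 14 were higher in liver, holding 0.116% and 0.217% of the summed value in liver and 0.00146% and 0.000946% in MIN6. Clec4f, a lectin of Kupffer cells, had 67.0 and 87.6 units in liver and was at 0 in MIN6. Of 13 tested endothelial and stellate markers 11 were higher in liver, holding 0.0338% and 0.0326% in liver and 0.000845% and 0.00245% in MIN6. All 5 tested red cell markers were higher in liver, with 0.188% and 0.0668% of the sum in liver and 0 in MIN6. Their part in the calls of genes that such cells also express was not tested. Of 5 bile duct markers 1 was higher in liver, and 3, Spp1, Krt7 and Krt19, were lower. Spp1 had 47.7 and 97.5 units in liver and 1327 and 1276 units in MIN6.

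The liver replicates were not alike in all of these groups. The class II histocompatibility genes were higher in replicate 2, Cd74 having 62.6 and 375 units, H2-Aa 17.8 and 240 units and H2-Ab1 30.5 and 134 units in liver replicates 1 and 2, with MIN6 at 0. H2-Aa, with the widest of these gaps, did not pass the test (adjusted p = 0.0505). Haemoglobin messages were higher in replicate 1, Hbb-bs having 904 and 283 units and Hba-a1 364 and 61.1 units. Since MIN6 was listed at 0 for these genes, the spread within liver set the size of the difference but not its direction.

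The nuclear libraries of the same study gave a reading that the calls had not used. Of the 1533 genes higher in liver cytoplasm, 1407 (91.8%) also had both nuclear liver libraries above both nuclear MIN6 libraries, against 30% of all tested genes, and 11 (0.718%) had the opposite order. Of the 4581 genes lower in liver, 2867 (62.6%) had both nuclear liver libraries below both nuclear MIN6 libraries, against 37.9% of all tested genes, and 386 (8.43%) had the opposite order. Of the 2283 genes lower under both scalings, 1692 (74.1%) were lower in the nuclear libraries in this way and 72 (3.15%) had the opposite order. The median nuclear difference of all tested genes was -0.16, with each nuclear library also rescaled to the common sum. Nuclear and cytoplasmic libraries were prepared separately and share no library with one another, but whether they share animals or cultures is not stated.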

How the data were processed

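PolyA RNA of nuclear and cytoplasmic fractions of liver and MIN6 was sequenced by the authors, with 2 libraries in each of 4 groups. Reads were aligned with TopHat to mm10 and quantified with Cuffdiff, per the submitters' processing notes. The deposited table holds 1 value per gene and library with no unit in its header, and the values are taken as FPKM because the authors used Cuffdiff. The sources used here give no versions, annotation or library scaling.

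Columns were matched to samples by title. Each library was rescaled to a sum of 1000000, and log2(value + 1) was fitted for genes with a mean of at least 1 over the 4 cytoplasmic libraries with limma 3.58.1 (lmFit, eBayes without trend, two-sided) in R 4.3.3. Adjusted p-values are Benjamini-Hochberg values over all 12866 genes, and the threshold is 0.05. Preparation used Python 3.11.15 and pandas 2.3.3. The read estimate was tried on simulated reads built from its own estimates, where it returned 0.991 to 1.02 times the value put in. Such a simulation cannot check the floor or the depth of the real libraries. The fit was tried on simulated data with a set noise and scaled by the median of ratios. It therefore does not check the calls made with equal sums. The 13 mitochondrial genes are listed at 0 throughout. Positions and exon overlap are from GENCODE M21, which held 12760 of the tested genes, and promoters are from RefSeq (GRCm38.p6), leaving out chromosome 18.

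The genes, the 45 gene lists and the tests were chosen with earlier results of these data known. Named genes are the 15 largest differences each way among calls whose higher tissue averaged at least 10 and did not overlap the other, the 3 largest called members each way and the highest member of each list, the 10 highest genes within 0.25 of 0, and all isozyme pairs. Other genes were chosen after their values were seen, and some genes are not reported here. Same-numbered libraries did not deviate together (correlation 0.012 over 12866 genes), so the numbers were not taken as pairs. Other scalings, pseudocounts, filters, a trended prior, a replicate block and leaving out each library were tried.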

Additional observations from a re-analysis of the deposited data

Results flagged for a closer look

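For each of the genes below, all called in the cytoplasm, every nuclear liver library stood on the other side of every nuclear MIN6 library than in the cytoplasm. In each case the difference between the fractions was not tested. Tm7sf2 was called under both scalings, while Ndufc2, Psme3 and Irs2 were called in the cytoplasm with equal sums only and not under the median of ratios.

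Tm7sf2, a sterol reductase, was higher in liver cytoplasm by a log2 difference of 2.1, with 127 and 121 units in liver and 29.1 and 27.4 in MIN6. Its nuclear values were 33.8 and 47.9 units in liver and 77.4 and 51.0 in MIN6.

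Ndufc2, a subunit of respiratory complex I, had a cytoplasmic difference of -2.15 (-1.0 and adjusted p = 0.0802 under the median of ratios), with 76.0 and 106 units in liver and 420 and 386 in MIN6. Its nuclear values were 16.9 and 21.2 units in liver and 14.1 and 11.7 in MIN6. Psme3, a proteasome activator, had a cytoplasmic difference of -1.64 (-0.50 and adjusted p = 0.184 under the median of ratios), with 60.3 and 62.9 units in liver and 191 and 197 in MIN6, and its nuclear values were 27.9 and 48.4 units in liver and 5.24 and 21.2 in MIN6. Irs2, an adaptor of the insulin receptor, had a cytoplasmic difference of -1.83 (-0.87 and adjusted p = 0.107 under the median of ratios), with 2.38 and 2.47 units in liver and 9.29 and 13.5 in MIN6. Its nuclear values, 1.41 and 0.443 units in liver and 0.352 and 0.364 in MIN6, were all under the floor of 3 reads. Both cytoplasmic liver values of Irs2 were also under the floor, which was 3.02 and 3.17 units in those libraries.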

How the results depend on the processing

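Counts of genes higher and lower in liver, 1533 and 4581 with equal sums, were 2161 and 2283 under the median of ratios and 2129 and 2342 with a common median. They were 1666 and 3533 with the sum taken without the 100 highest genes, and 7015 and 401 on values as deposited, whose sums differ between tissues (1219630 and 859210 in liver against 60421 and 63355 in MIN6). For list members the counts were 322 and 317, against 380 and 157 under the median of ratios, 375 and 158 with a common median and 334 and 247 without the 100 highest genes. With pseudocounts of 0.1 and 5 the counts were 1445 and 4024, and 1521 and 4834. Without the filter they were 1546 and 4511, with a minimum mean of 10 they were 1094 and 3448, and with a trended prior 1555 and 4697.

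Leaving out each library gave 927 to 1312 genes higher and 2558 to 2688 lower, and 242 to 255 list members higher and 168 to 211 lower. Without liver replicate 1 the counts were 1312 and 2558, without liver replicate 2 they were 1253 and 2628, without MIN6 replicate 1 they were 941 and 2641, and without MIN6 replicate 2 they were 927 and 2688. The lone library left in a tissue is then assumed to vary like the other tissue. With a replicate block, although the numbers do not pair the samples, 1187 and 2835 genes were called, with 291 and 184 list members, and it left 1174 and 2725 of the original calls.

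Under the median of ratios 3 named genes changed sign: Slc25a39 to 0.97 (adjusted p = 0.0481), P4hb to 0.0604 and Mrps12 to 0.0123, and P4hb was at 0.0225 with a common median. By construction these scalings raise liver against MIN6. Depth limits low genes, since the estimated reads leave values near 3 units resting on few of them.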

Other observations

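Several inflammation-induced plasma proteins of the liver differed between the liver replicates. Of 15 acute phase genes, chosen after their values were seen, 14 were tested. These 14 held 10.1% and 6.08% of the summed value in liver replicates 1 and 2, against 0.00159% and 0.00135% in MIN6 replicates 1 and 2. Saa1 had 24930 and 14820 units and Saa2 27210 and 12890 units in liver replicates 1 and 2, with MIN6 at 0. Saa3, an amyloid A form that macrophages also make, had 2393 and 683 units in liver and 5.45 and 0 units in MIN6. Apcs, the pentraxin of mouse acute phase plasma, had 564 and 170 units in liver. Orm2, an orosomucoid, had 2562 and 936 units in liver, and Lcn2, which binds bacterial iron carriers, had 1511 and 738 units. Hp at 9828 and 7112 units and Hpx at 19610 and 14970 units differed less. Of the same genes, Il1rn, an interleukin-1 receptor antagonist, had 4.14 and 24.99 units and Cxcl1, a chemokine, had 0 and 9.36 units in liver replicates 1 and 2, in the opposite order, and both were listed at 0 in MIN6.

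The same numbering in the liver nuclear libraries gave 532 and 182 units of Saa3, but 4643 and 3731 of Saa2 and 1.58% and 1.69% for the summed genes. The class II gene Cd74 had 75.5 and 565 units in liver nuclear replicates 1 and 2 and 62.6 and 375 units in liver cytoplasmic replicates 1 and 2, replicate 2 being the higher in both fractions. H2-Ab1 had 65.2 and 477 units in the nuclear and 30.5 and 134 units in the cytoplasmic liver libraries. Hbb-bs had 61.0 and 14.8 units in the nuclear and 904 and 283 units in the cytoplasmic liver libraries, replicate 1 being the higher in both. Cyp4a14, a fatty acid hydroxylase induced in fasting, had 244 and 27.0 units in liver cytoplasmic replicates 1 and 2, against 5219 and 1531 units in the nuclear ones.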
